A study of Mus musculus with 60 samples.

Results

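The 9 genes described here are Ppbp, Pf4, Itga2b, Gp1bb, Gp9, Treml1, Gng11, Vwf and Clec1b, all known from megakaryocytes and the platelets they shed. They were followed in spleen leukocytes of young mice through every probe set (a group of short oligonucleotides that read 1 transcript on the array) whose annotated symbol or alias was 1 of these names. This gave 11 of the 45037 probe sets on the paired 430A and 430B arrays, all of them on 430A. Probe sets were kept where 5 or more of the 30 mice had a signal of 50 or above. All 11 were kept, among 38293 in all.

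In mice the spleen keeps making blood cells after birth, and its red pulp holds megakaryocytes beside erythroid and granulocytic precursors. A megakaryocyte fills with granules and surface receptors and then releases platelets into the blood, where they stop bleeding and also meet leukocytes. The transcripts of the finished platelet are therefore laid down in the megakaryocyte, and platelets carry a part of that RNA with them.

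The series compared female NOD mice, the inbred strain that develops autoimmune diabetes, with females of 2 control strains that do not, NON, which is related to NOD, and C57BL/6 (C57). Spleen leukocytes were taken at 4 and at 2 weeks of age, up to the age at which leukocytes first gather around the islets of NOD mice, and were neither cultured, treated nor sorted. The 6 groups were NOD, NON and C57 mice at 4 weeks and NOD, NON and C57 mice at 2 weeks, with 5 samples in each. Each sample is called a mouse here, since no pooling was stated, and no group carried an engineered allele or received an agent. The cells were unfractionated, so a lower array signal from fewer megakaryocytes or platelets and one from less RNA per cell cannot be told apart.

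Ppbp (pro-platelet basic protein) and Pf4 (platelet factor 4) are chemokines stored in platelet alpha granules, and Vwf (von Willebrand factor) is the adhesive protein that tethers platelets to a damaged vessel and is also made by endothelial cells. Itga2b is the alpha chain of the fibrinogen receptor, and Gp1bb and Gp9 are subunits of the receptor that binds von Willebrand factor. Treml1 and Clec1b are receptors of the megakaryocyte and platelet surface, the second of which binds podoplanin. Gng11 is a gamma subunit of heterotrimeric G proteins.

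Promoter sequence is printed for 4 members, which include both genes with an age difference past the threshold, Ppbp and Gp9. The others are Pf4, the granule chemokine that moved most closely with Ppbp from mouse to mouse, and the receptor chain Itga2b. Ppbp and Pf4 are neighbours on chromosome 5. Each line below holds the 250 bases before the annotated start in RefSeq (build GRCm38.p6), 5′ to 3′ on the strand of the gene, and the capitals mark words read by ETS factors. The windows are chr5:90768268-90768517 (plus strand) for Ppbp, chr5:90772185-90772434 (plus strand) for Pf4, chr11:102469884-102470133 (minus strand) for Itga2b and chr6:87777820-87778069 (plus strand) for Gp9.
Ppbp: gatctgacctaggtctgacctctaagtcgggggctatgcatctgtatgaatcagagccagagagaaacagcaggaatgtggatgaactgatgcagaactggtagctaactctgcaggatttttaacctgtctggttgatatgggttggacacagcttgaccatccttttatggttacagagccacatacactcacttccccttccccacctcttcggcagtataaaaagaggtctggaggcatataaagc
Pf4: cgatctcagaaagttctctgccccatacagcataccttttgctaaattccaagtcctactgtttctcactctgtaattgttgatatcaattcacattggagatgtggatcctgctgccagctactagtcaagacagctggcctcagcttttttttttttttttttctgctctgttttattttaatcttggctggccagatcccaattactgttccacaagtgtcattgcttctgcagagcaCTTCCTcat
Itga2b: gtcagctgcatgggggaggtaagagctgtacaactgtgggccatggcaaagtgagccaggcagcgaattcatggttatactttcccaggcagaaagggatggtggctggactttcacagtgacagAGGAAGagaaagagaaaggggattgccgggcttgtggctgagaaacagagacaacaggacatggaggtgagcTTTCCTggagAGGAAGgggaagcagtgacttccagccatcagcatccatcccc
Gp9: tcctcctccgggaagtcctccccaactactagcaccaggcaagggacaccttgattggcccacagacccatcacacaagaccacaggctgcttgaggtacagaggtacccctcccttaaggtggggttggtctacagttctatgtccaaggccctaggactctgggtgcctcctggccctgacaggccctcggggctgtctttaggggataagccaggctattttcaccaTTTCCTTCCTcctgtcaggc

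RefSeq promoters were matched for 7 of the 9 members, all but Vwf and Gng11. The ETS word searched on both strands was GGAA with an A or a C before it and an A or a G after it, and 6 of the 7 promoters held at least 1, against 57.2% of 32851 promoter windows of the same length. Pf4 had 1 such word, starting 9 bases before the start, and Itga2b had 3. Gp9 had 2 that overlap, starting 20 and 16 bases before the start. The word GATA with an A or a T before it and an A or a G after it was found in 2 of the 7, Gp1bb and Clec1b, against 26.5% of all windows. The Runx word TGTGGT was found in Gp9 only among the 7, against 14.0% of all windows. These are matches of letters in a short window.

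All 9 genes had signal in spleen leukocytes. Pf4, Itga2b, Treml1, Gng11 and 1 of the Gp1bb probe sets read at least 50 in all 30 mice, Ppbp and Clec1b in 29 and Gp9 in 23. Vwf reached 50 in only 7 mice, with a signal of 2.0 in 1 NON and 1 C57 mouse at 4 weeks. Differences are given on the log2(signal + 10) scale with standard errors (SE) from limma, and that scale understates differences of dim probe sets such as that of Vwf. All arrays had been scaled to 1 trimmed mean. The ratio of 3′ to 5′ Gapdh probe sets, a sign of RNA length, ran between 0.744 and 4.0, and it was over 2 in 5 mice, 3 of them at 4 weeks (NON mice 1 and 5, C57 mouse 4) and 2 at 2 weeks (NON mouse 2, C57 mouse 5).

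**Figure D1:**
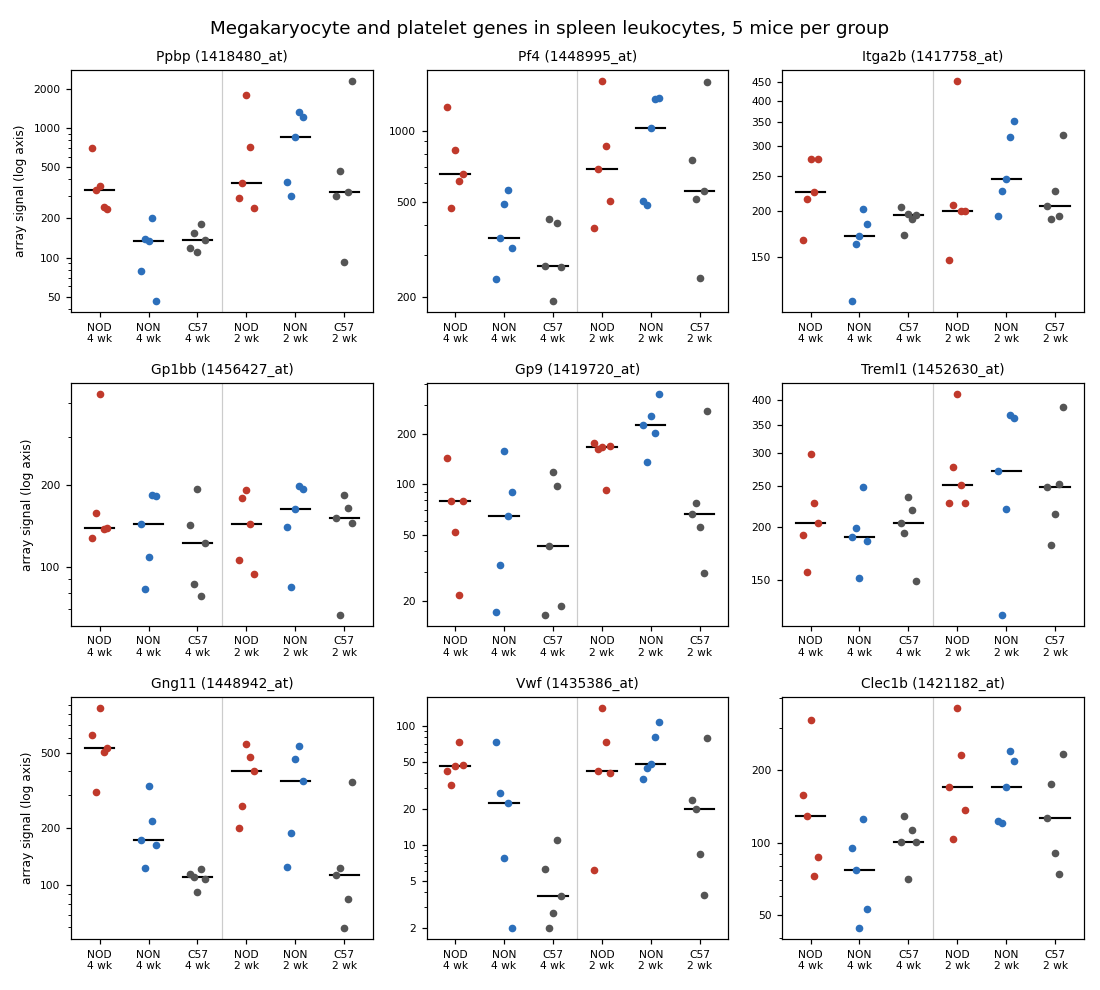
Array signal (log axis) of the brightest probe set of each of the 9 genes in every mouse, by strain and age, with 5 mice per group and the group median as a bar. At 4 weeks all 5 NOD mice lie above all 10 control mice for Ppbp, while at 2 weeks the strains overlap for every gene.

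At 4 weeks, the question was which members differed in NOD mice from both control strains. NOD had the higher estimate for all 9 genes against the mean of NON and C57, with a median log2 difference of 0.58, against 0.05 over all 38293 probe sets, of which 55.1% had a higher estimate. Gng11 and Ppbp passed the test (adjusted p under 0.05 over all probe sets, limma with Benjamini-Hochberg adjustment), beside 0.285% of all probe sets that did so in the same direction. The test across the 3 strains called Gng11 alone of the 9, beside 1.51% of all probe sets. The comparisons with NON alone and with C57 alone share the same NOD mice.

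Gng11 differed most. Its signal was 624.1, 311.1, 866.8, 504.8 and 530.4 in the 5 NOD mice of 4 weeks. It was 174.1, 122.7, 334.8, 217.7 and 162.7 in the NON mice and 115, 110.4, 92.6, 122.5 and 107.9 in the C57 mice. Every NOD mouse was above every C57 mouse, a gap whose share over all probe sets was not counted. The NON mouse at 334.8 lay just above the lowest NOD mouse. NOD averaged 567 ± 202 against 202 ± 81.4 in NON mice and 110 ± 11 in C57 mice (SD, n = 5 each). This mean was 3.64 times that of the control strains. The log2 difference was 1.82 (SE 0.24, adjusted p = 0.00121). Against C57 alone it was 2.20 (SE 0.28, adjusted p = 6.58e-04), beside 0.462% of all probe sets called higher. Against NON alone it was 1.45 (SE 0.28, adjusted p = 0.0281), beside 0.272% called higher. This call was lost in 10 of 27 settings. They were the removal of any 1 of 7 mice (NOD mice 1, 3, 4 and 5, NON mice 1, 2 and 5, adjusted p up to 0.0826), the Gapdh ratio as a covariate (0.156), the fit on all 30 mice (0.0788) and the removal of the 5 mice of high Gapdh ratio (0.246).

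Ppbp, the precursor of several platelet chemokines, was the member whose groups did not overlap. Its signal was 697.6, 328.9, 353.2, 244.5 and 236.7 in NOD mice of 4 weeks. It was 78.5, 138.6, 133.1, 203.4 and 46.2 in NON mice and 117.7, 155.3, 110.4, 180.6 and 137.1 in C57 mice. All NOD mice were above all 10 control mice, which was so for 0.308% of all probe sets, and NOD mouse 1 was far above the other NOD mice. The log2 difference from the mean of the control strains was 1.42 (SE 0.31, adjusted p = 0.0452), and the mean signal was 372 ± 189 in NOD mice, 120 ± 60.5 in NON mice and 140 ± 28.6 in C57 mice. That adjusted p lies close to the threshold. Leaving out any 1 mouse other than NON mouse 4 put it above 0.05, with adjusted p between 0.0511 and 0.129 and log2 differences between 1.17 and 1.55. With these 14 removals included, the call was lost in 22 of 27 settings (adjusted p up to 0.186).

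Pf4, the neighbour of Ppbp in the genome and in the alpha granule, had signals of 1254, 474, 826.7, 611.8 and 659.3 in NOD mice. It had 238.3, 353.8, 490.3, 563.5 and 321.8 in NON mice and 269.7, 422.6, 191.6, 407.7 and 267.3 in C57 mice. Among NOD mice only mouse 2 lay within the range of the controls. The log2 difference was 1.09 (SE 0.27, adjusted p = 0.0767), which did not pass the test, except without NOD mouse 2 (1.24, adjusted p = 0.0479).

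Vwf read 41.4, 31.9, 45.7, 73.4 and 47 in NOD mice. It read 73.2, 27.2, 7.7, 22.4 and 2 in NON mice and 6.3, 2, 2.7, 11 and 3.7 in C57 mice. All NOD mice were above all C57 mice, where the share over all probe sets was again not counted. NON mouse 1 was nearly as high as the highest NOD mouse. Every C57 signal was far below the level of 50 used as the filter, so the size of the difference is set largely by the pseudocount and no fold is given. Against both control strains the log2 difference was 1.44 (adjusted p = 0.0781) with the pseudocount of 10, 2.31 with 1 and 0.61 with 50, and it passed the test without NON mouse 1 (adjusted p = 0.0121). Against C57 alone it was 1.93 (adjusted p = 0.0332), 3.13 and 0.82 with the same pseudocounts. That call was lost in 12 of 26 settings. Among them were the pseudocount of 50 (adjusted p = 0.0642), the replicate number as a block and the removal of any 1 of 8 mice (adjusted p up to 0.0941).

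The other 5 members were not called at 4 weeks. Their log2 differences from the mean of the control strains were 0.58 for Clec1b, 0.45 for Gp1bb, 0.35 for Itga2b, 0.28 for Gp9 and 0.10 for Treml1, each with an interval that included 0. For Treml1 the 95% interval ran from -0.27 to 0.48. Gp9 was the most scattered, at 144.2, 78.9, 51.7, 21.6 and 79.5 in NOD mice (interval of the difference -0.77 to 1.34).

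**Figure D2:**
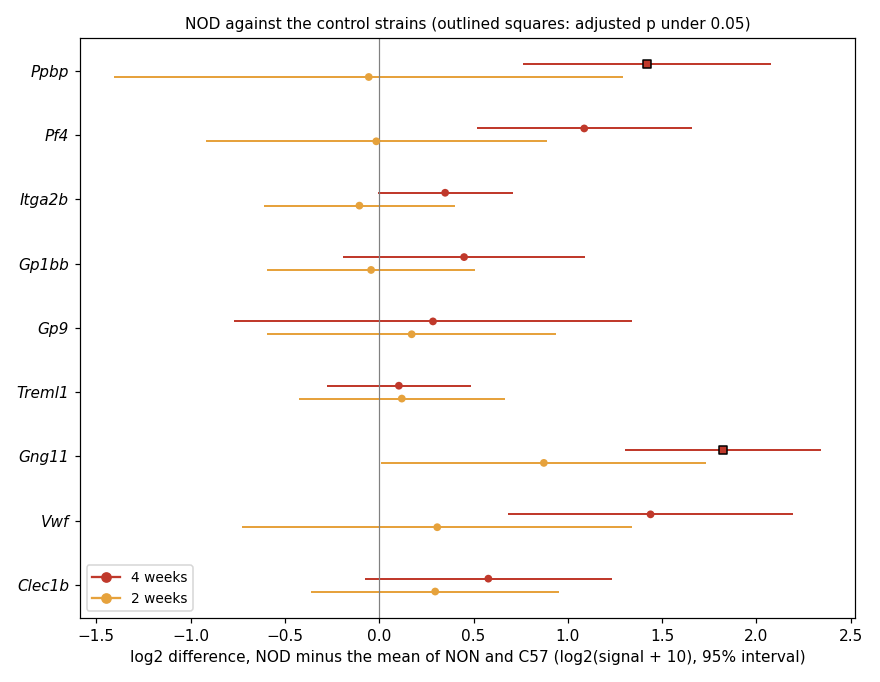
Log2 difference of NOD from the mean of NON and C57 with its 95% interval for each of the 9 genes, at 4 weeks (red) and at 2 weeks (orange), 15 mice at each age. Gng11 (1.82) and Ppbp (1.42) passed the test at 4 weeks and no gene did at 2 weeks.

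No gene of the wider platelet and megakaryocyte lists passed the test between NOD and the mean of the control strains at 4 weeks. Of 17 other platelet surface receptors 14 had a higher estimate in NOD (median 0.34), as had 10 of 16 granule and secreted proteins (median 0.26), 17 of 29 genes of platelet signalling and cytoskeleton (median 0.06) and 12 of 18 of megakaryocyte transcription (median 0.05). The one nearest to the threshold in these lists was Myl9, a myosin light chain. It averaged 122 ± 51.2 in NOD mice, 36.0 ± 27.3 in NON mice and 31.6 ± 12.6 in C57 mice (log2 difference 1.66, adjusted p = 0.0521). Pla2g4a, a phospholipase that releases arachidonic acid, was called against C57 alone (1.33, adjusted p = 0.0261) and across the strains (adjusted p = 0.0426), at 143 ± 35.6 in NOD mice, 109 ± 36.0 in NON mice and 51.7 ± 17.2 in C57 mice. The test across strains also called F13a1, a subunit of coagulation factor XIII, at 603 ± 194 in NOD mice, 792 ± 169 in NON mice and 321 ± 70.7 in C57 mice (adjusted p = 0.0388).

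Markers of other cells differed in both directions in the same comparison, and none was called against the mean of the control strains. Of 19 endothelial genes 17 had the higher estimate in NOD at 4 weeks (median 0.68). An unadjusted p under 0.05, in either direction, was reached by 12 of the 19. In the higher direction alone 6.84% of all probe sets reached it, so the count and this share are not like for like. The summed signal of the 20 measured endothelial probe sets lay between 2647.5 and 6545.1 in NOD mice, between 2305.8 and 3150.7 in NON mice, and between 2314.9 and 3328.5 in C57 mice. Of 5 defining genes, Kdr, Cdh5 and Tek had the highest median in NOD, and Emcn and Pecam1 did not. Kdr had a median of 352.7 in NOD mice, 170.3 in NON mice and 195.1 in C57 mice. Cdh5 had a median of 160.8 in NOD mice, 93.3 in NON mice and 89.9 in C57 mice, while Pecam1 had 365.7 in NOD mice, 404.7 in NON mice and 444.3 in C57 mice. All 9 macrophage markers had higher estimates in NOD (median 0.98) and all 7 B cell markers lower ones (median -0.42). Erythroid markers had a higher estimate in 13 of 15 cases (median 0.39), but 12 of the 15 were lower in NOD than in NON (median -0.28) and all 15 higher than in C57 (median 1.08). Granulocyte precursor markers were lower in 6 of 9 cases (median -0.17), with all 9 lower than in NON (median -0.78) and all 9 higher than in C57 (median 0.60, 2 of them called). The part of these cells in the differences of Gng11, Ppbp, Pf4 and Vwf was not tested.

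At 2 weeks no member was called in any comparison of the strains, in the test across strains (beside 1.66% of all probe sets) or in NOD against the control strains, where 0.212% of all probe sets were called higher and 0.287% lower. The shares called higher and lower were 0.324% and 0.222% against NON alone, and 0.329% and 0.512% against C57 alone. The median log2 difference over the 9 genes was 0.12, against 0.06 over all probe sets, with 5 genes higher and 4 lower in NOD. Gng11 again had the largest estimate, 0.87 (SE 0.40, adjusted p = 0.522), with 201.5, 261.7, 557.6, 476.1 and 402.6 in NOD mice. It had 125.6, 189.1, 463.2, 541.1 and 356.1 in NON mice and 113.1, 123.7, 59.5, 84.8 and 351.7 in C57 mice. NOD and NON overlapped almost wholly, and 1 C57 mouse stood with them.

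Ppbp at 2 weeks showed how wide the groups were. Its signal was 290.2, 373.3, 1782.3, 711 and 239.2 in NOD mice. It was 385.6, 299.3, 857, 1326.5 and 1222.2 in NON mice and 299.6, 464.4, 93.1, 319.2 and 2310.2 in C57 mice. The 3 strains overlapped, the coefficient of variation reached 131% in C57, and the difference of -0.06 had an interval of -1.40 to 1.29. Pf4 differed by -0.02 (interval -0.91 to 0.88). Against C57 alone, Gp9 was at 154 ± 34.6 in NOD and 100 ± 98.1 in C57, or 57.2 without C57 mouse 5 (log2 difference 0.88, adjusted p = 0.425). Among the settings tried it passed only without the 5 mice of high Gapdh ratio (1.31, adjusted p = 0.0473). In the wider lists at 2 weeks, 1 of 18 megakaryocyte transcription genes was called lower in NOD than in NON, and 1 across the strains. Of 15 erythroid genes 1 was called higher in NOD than in C57.

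The comparison of ages asked whether the genes differed at 4 weeks from 2 weeks. Averaged over the 3 strains, Ppbp and Gp9 were lower at 4 weeks and passed the test, beside 1.88% of all probe sets that were called lower and 1.31% called higher. Of the 9 genes 8 had a lower estimate at 4 weeks (median -0.61, against 0.01 over all probe sets, of which 48.2% were lower). An unadjusted p under 0.05 was reached by 7 of the 9, beside 7.02% of all probe sets that reached it in the lower direction.

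Ppbp averaged 372 ± 189, 120 ± 60.5 and 140 ± 28.6 at 4 weeks in NOD, NON and C57 mice. At 2 weeks it averaged 679 ± 643 in NOD, 818 ± 469 in NON and 697 ± 911 in C57, where the mean without C57 mouse 5 was 294. The log2 difference over the strains was -1.53 (SE 0.35, adjusted p = 0.00869), and it kept its call without any 1 mouse (adjusted p between 0.00156 and 0.0175). In NON mice every signal at 4 weeks, 46.2 to 203.4, was below every signal at 2 weeks, 299.3 to 1326.5. Such a gap was seen for 1.83% of all probe sets in NON.

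Gp9, the glycoprotein IX subunit, read 144.2, 78.9, 51.7, 21.6 and 79.5 at 4 weeks and 177.5, 161.9, 166.6, 92.5 and 169.3 at 2 weeks in NOD mice. In NON mice it read 17.1, 32.9, 157.1, 64.6 and 89.4 at 4 weeks and 225.2, 135.1, 254.7, 201.4 and 345.9 at 2 weeks. In C57 mice it read 16.6, 42.7, 118.2, 97.5 and 18.6 at 4 weeks and 66.4, 77.2, 55.6, 29.6 and 273 at 2 weeks. In NOD and NON 1 mouse of 4 weeks each lay within the range of the younger group, while in C57 the ages overlapped widely. The C57 mean was 58.7 at 4 weeks and 100 at 2 weeks, or 57.2 without C57 mouse 5 of 2 weeks. The lower C57 mean at 4 weeks thus rested on that mouse. By strain the log2 difference was -1.09 (SE 0.38) in NOD, -1.78 (SE 0.46) in NON and -0.63 (SE 0.59) in C57. The mean log2 difference over the 3 strains was -1.17 (SE 0.30, adjusted p = 0.0239), and it kept its call without any 1 mouse (adjusted p up to 0.0454).

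The remaining members were not called over the 3 strains. Vwf (-0.74), Pf4 (-0.72), Clec1b (-0.61), Treml1 (-0.35) and Itga2b (-0.27) had intervals below 0, with adjusted p between 0.118 and 0.362. For Vwf the value was -1.14 with a pseudocount of 1 and -0.36 with 50. Pf4 was called without C57 mouse 3 of 2 weeks (adjusted p = 0.0397), and Clec1b without NOD mouse 3 of 4 weeks (adjusted p = 0.0362). Gng11, the member that differed most between strains, had a mean age difference of -0.05 (interval -0.51 to 0.42).

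Within single strains no member was called, in designs of 10 mice where few probe sets were called at all (0.0104% lower and 0.00522% higher in NOD, 0.0339% and 0.0261% in NON, 0.0992% and 0.00783% in C57). All 9 genes had lower estimates at 4 weeks in NON (median -1.08) and in C57 (median -0.33), beside 49.8% and 46.7% of all probe sets, whereas in NOD 4 were lower and 5 higher (median 0.02). Ppbp had a log2 difference of -0.55 (SE 0.52) in NOD, -2.58 (SE 0.49, adjusted p = 0.092) in NON and -1.47 (SE 0.65) in C57, where it was -0.84 without C57 mouse 5 of 2 weeks. The NON difference passed where all 30 mice shared 1 estimate of the spread (adjusted p = 0.0245). Pf4 differed by 0.02 in NOD and by -1.17 in NON, with an interval of -1.97 to -0.04 in C57. Gng11 differed by 0.58 in NOD, -0.59 in NON and -0.14 in C57.

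**Figure D3:**
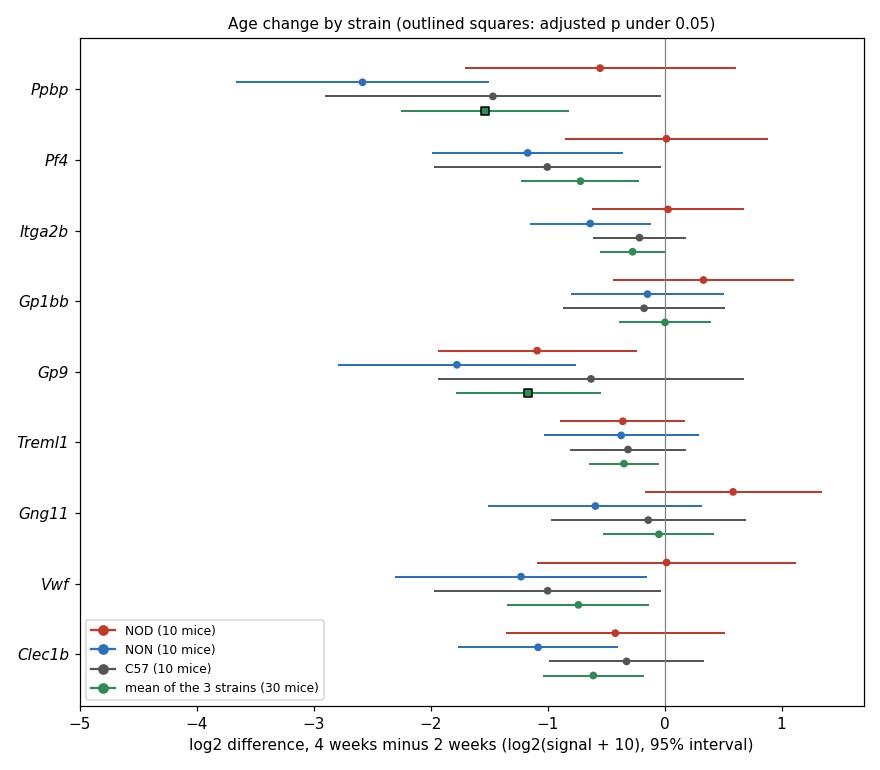
Log2 difference between 4 and 2 weeks with its 95% interval for each gene, in NOD, NON and C57 mice (10 each) and as the mean of the 3 strains (30 mice). The mean over strains passed the test for Ppbp (-1.53) and Gp9 (-1.17), and no difference within 1 strain did.

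The difference in age change between strains was itself tested and no member passed, beside 0.00261% of all probe sets (1 probe set). For Ppbp the change in NOD minus that in NON was 2.03 (interval 0.30 to 3.77, adjusted p = 0.542), and for Pf4 the change in NOD minus the mean of the control strains was 1.10 (interval 0.05 to 2.15, adjusted p = 0.799). These comparisons share the NOD mice of 4 weeks with the strain comparison at that age, so the 2 sets of values are not independent.

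Other genes of the platelet and megakaryocyte lists moved with age in both directions. These lists also hold genes that other cells express. Over the 3 strains, 1 of 17 surface receptors was lower at 4 weeks, Gp5, the subunit that completes the von Willebrand factor receptor with Gp1bb and Gp9. It averaged 132 ± 79.3, 71.0 ± 19.8 and 100 ± 24.8 in NOD, NON and C57 mice of 4 weeks, and 198 ± 119, 248 ± 101 and 149 ± 76.8 in those of 2 weeks (log2 difference -0.91, adjusted p = 0.0349). Of 16 granule and secreted proteins 4 were lower, Thbs1, F13a1, F5 and Angpt1, and 1 was higher, Ccl5, a chemokine that T cells also make. Thbs1, the adhesive granule protein thrombospondin 1, was at 75.8 ± 29.6, 80.2 ± 13.4 and 69.6 ± 12.7 at 4 weeks and at 227 ± 77.0, 189 ± 59.9 and 261 ± 108 at 2 weeks in NOD, NON and C57 mice (log2 difference -1.43, adjusted p = 2.38e-06).

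Of 29 genes of signalling, cytoskeleton and granule formation 4 were lower (Myl9, Tubb1, Prkar2b and Gnaq) and 2 were higher (Lat and Plek). Tubb1, the beta 1 tubulin that forms the rim of the platelet, was at 509 ± 173, 668 ± 250 and 383 ± 139 at 4 weeks and at 1028 ± 786, 1977 ± 995 and 1133 ± 1229 at 2 weeks in NOD, NON and C57 mice (log2 difference -1.13, adjusted p = 0.0204). Of 18 transcription and maturation genes 3 were lower, Nfe2 (-0.83, adjusted p = 2.38e-04), a regulator of late megakaryocytes that erythroid cells also use, with Ccnd3 and Mafg. Gata1, the shared erythroid and megakaryocytic factor, had a log2 difference of -0.50 and was not called (adjusted p = 0.281).

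Markers of other cells differed between the ages. All 9 markers of granulocyte precursors were called lower at 4 weeks (median -1.34), for example Mpo (-1.88, adjusted p = 1.02e-06), while all 7 T cell markers were called higher (median 0.91). The median summed signal of the granulocyte precursor markers was 21308.3 at 4 weeks and 50926.2 at 2 weeks in NOD, 35980 and 41030.7 in NON, and 12558.4 and 40854.2 in C57. Mpo is the myeloperoxidase of neutrophil granules. None of 15 erythroid and none of 19 endothelial genes was called, with medians of -0.20 and -0.14 and 1 unadjusted p under 0.05 in each list. The part of these cells in the age differences of Ppbp and Gp9 was not tested.

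Gp1bb was read by 3 probe sets that did not move together. The brightest had an age difference over the strains of 0.00 (interval -0.38 to 0.39), whereas a dimmer one, also specific to Gp1bb, differed by -0.60 (interval -1.02 to -0.19, adjusted p = 0.117). At 4 weeks this dimmer probe set read 94.1, 89.1, 104.7, 95.2 and 84.2 in NOD mice. It read 90.6, 52.4, 42.6, 89.4 and 65.5 in NON mice and 48.6, 33.7, 69, 61.9 and 44.3 in C57 mice, with a log2 difference of 0.61 between NOD and the control strains (adjusted p = 0.184). NOD mice were above all C57 mice on this probe set (share over all probe sets not counted) and overlapped with NON. The 2 probe sets correlated weakly over the mice within their groups (r = 0.30, rho = 0.33, n = 30). The third is annotated to both Septin5 and Gp1bb, which lie next to each other, so its signal is uncertain as a measure of Gp1bb. It was lower at 4 weeks (-0.65, adjusted p = 0.00473), and in C57 its 4-week signals, 40.6 to 74.2, all lay below those of 2 weeks, 84.4 to 150.3, as was so for 1.28% of all probe sets in C57.

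**Figure D4:**
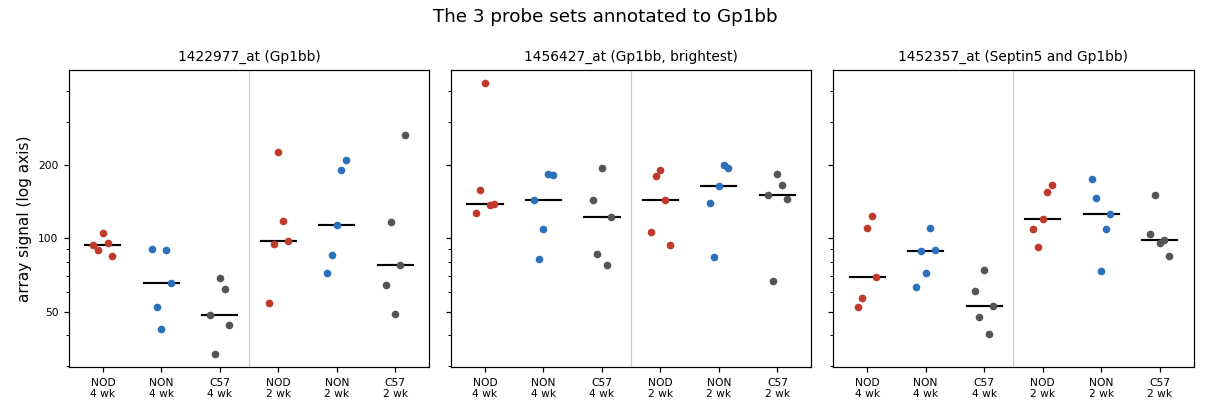
Array signal (log axis) of the 3 probe sets annotated to Gp1bb in every mouse by strain and age, 5 mice per group, with the group median as a bar. In the left panel the NOD mice of 4 weeks read 84.2 to 104.7, above all C57 mice of that age (share over all probe sets not counted). The middle panel (the brightest) shows no such order and has 1 NOD mouse at 430.8. The right panel is the probe set shared with Septin5.

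The members varied together among mice of the same group. Over the 30 mice, after subtracting the mean of each group from the log2 values, the 36 pairs of genes had a median r of 0.51, and 19 pairs were over 0.5. The closest pair was Ppbp and Pf4 (r = 0.90, rho = 0.85, and r = 0.86 without the 2 mice farthest from the median). Pf4 and Gng11 followed (r = 0.81, rho = 0.77), and Ppbp and Gng11 were at 0.75. Gp9 and the brightest Gp1bb probe set moved least with the others, with median r of 0.25 and 0.19, and Gp9 and Vwf had r = -0.02. The dimmer Gp1bb probe set had r = 0.77 with Ppbp and also with Vwf. Signals of 1 array share its scaling and RNA quality, and the median r of Ppbp with all kept probe sets was 0.00.

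At 2 weeks NOD mouse 3 was the highest of its group in 8 of the 9 genes, all but Gp9, and C57 mouse 5 in 8, all but Gp1bb. NON mice 4 and 5 of that age shared the top place between them, in 5 and 4 genes. At 4 weeks NON mouse 4 was highest in 6 genes and NOD mouse 3 in 5. For NOD mouse 3 of 2 weeks the signals were 1782.3 for Ppbp, 1622.1 for Pf4 and 453 for Itga2b, and the next highest NOD mice of that age had 711, 859 and 208.

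**Figure D5:**
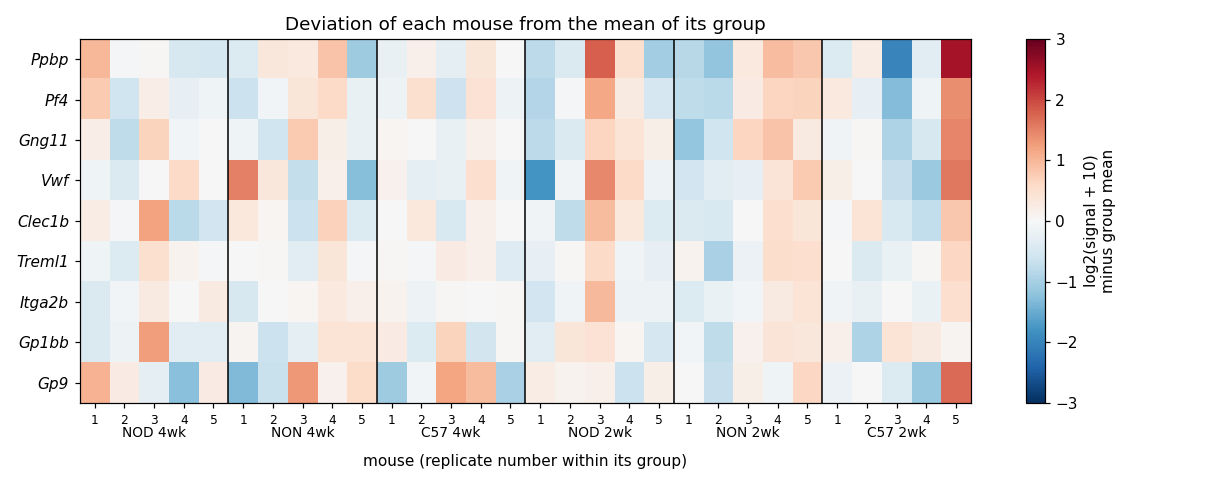
Deviation of log2(signal + 10) from the group mean for each gene (rows) in each of the 30 mice (columns, by group and replicate number). NOD mouse 3 and C57 mouse 5 of 2 weeks are high in 8 of the 9 genes each.

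A score, the mean of the 9 standardised log2 signals, gave 1 value per mouse. Its median was 0.16 in NOD, -0.78 in NON and -0.78 in C57 mice of 4 weeks, and 0.31 in NOD, 0.71 in NON and -0.39 in C57 mice of 2 weeks. At 4 weeks it ran from -0.07 to 1.06 in NOD, from -0.82 to -0.03 in NON and from -0.97 to -0.55 in C57 mice. The NOD range of that age met the upper end of the NON range and lay above the C57 range. How often scores of other genes do so was not counted. At 2 weeks the ranges of the strains overlapped (-0.29 to 1.73 in NOD, -0.31 to 1.38 in NON and -0.65 to 1.33 in C57 mice). With the log2 Gapdh ratio the score had r = -0.38 (rho = -0.51), and -0.21 for deviations from group means. For deviations from group means the score had r = 0.67 with the list of other platelet surface receptors, 0.44 with granule and secreted proteins, 0.32 with signalling and cytoskeleton and 0.24 with megakaryocyte transcription (n = 30 mice each). It had r = 0.56 with erythroid genes, 0.39 with macrophage genes and 0.29 with endothelial genes. The values were -0.02 with stem and progenitor cell genes, -0.22 with granulocyte precursor genes, -0.32 with B cell genes and -0.43 with T cell genes.

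Among 16191 genes outside the members, the 10 with the highest r to this score over the 30 mice were Myl9, Stx2, Parvb, Tubb1, Tceal8, Alox12, Fignl1, Cchcr1, Nt5dc2 and Smim10l1, with r between 0.74 and 0.87. The median r of all genes was 0.04 and the 95th percentile 0.45. Myl9 was first (r = 0.87, rho = 0.92, and 0.75 for deviations from group means), and Tubb1 had the highest value of the 10 for those deviations (0.80). Alox12, the 12-lipoxygenase of platelets, was at 0.75, and Myl9, Tubb1 and Alox12 were the 3 of the 10 that stood in the platelet lists.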

How the data were processed

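Spleen leukocyte RNA of 30 mice was hybridised to 60 Affymetrix arrays, 1 430A and 1 430B array per mouse. The deposited values are intensity signals on a linear scale, which the authors computed in MAS 5.0 (named in the submitters' processing notes) with global scaling. The methods name a trimmed mean target of 100, whereas the 2% trimmed mean of every array in the table was 250, so signals are in these arbitrary units. Detection calls were not used here. Precision is limited by how many arrays there were.

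The chips were combined (45037 probe sets without controls, 100 probe sets on both chips taken from 430A), filtered on a signal of at least 50 in at least 5 mice, and tested as log2(signal + 10) in limma 3.58.1 (R 4.3.3), with p-values adjusted by Benjamini-Hochberg over the 38293 probe sets kept and a threshold of 0.05. Strains were compared within each age (15 mice), ages within each strain (10 mice), and the mean age change and its difference between strains over 30 mice. Gene names came from the platform annotation (34945 probe sets with 1 gene, 932 with several, 9160 with none named here). All members were named, each by its brightest probe set, and genes of other lists where their adjusted p was under 0.05 (at most 8 per list); Gata1, Myl9 at 4 weeks and the 5 endothelial markers were named outside this rule, after their values were seen. The 10 genes most like the members were those with the highest Pearson r to the members' score. The members and lists were chosen with earlier results of these data known. The fits were tested on simulated data. Alternatives covered pseudocounts, filters, normalization, array weights, the Gapdh ratio, a replicate block, the methods' own tests and leaving out each mouse. Equal replicate numbers were not treated as a pairing in the main tests. The deviations of same-numbered mice had median correlations of 0.0261 to 0.0644, against -0.0155 to 0.00163 for mice of different numbers. Whether mice of the same number shared a batch was not tested. The p-values weigh each difference against the spread between these samples.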

Additional observations from a re-analysis of the deposited data

Results flagged for a closer look

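In 10 of 66 groups of 5 mice (11 probe sets in 6 groups) the highest or lowest mouse lay far from the other 4 by Dixon's criterion. For normally distributed values chance gives about 1 group in 20, or 3.3 of 66. The criterion was applied to linear signals and not to the log2 scale of the tests, where high values stand out less. The count of 10 therefore cannot be read as an excess over chance. C57 mouse 5 of 2 weeks gave 5 of them, with signals of 2310.2 for Ppbp, 323.4 for Itga2b, 273 for Gp9, 351.7 for Gng11 and 79 for Vwf, where the other C57 mice of that age reached at most 464.4, 227, 77.2, 123.7 and 23.7. This mouse was 1 of the 5 with a Gapdh ratio over 2. NOD mouse 3 of 2 weeks gave 2, with 453 for Itga2b (others 147.5 to 208) and 414 for Treml1 (others 228.4 to 278.7). Single genes stood apart in NOD mouse 1 of 4 weeks (Ppbp 697.6, others 236.7 to 353.2), in NOD mouse 3 of 4 weeks (Gp1bb 430.8 on its brightest probe set, others 127.1 to 157.9) and in NOD mouse 4 of 2 weeks (Gp9 92.5, others 161.9 to 177.5). The 66 groups are not independent, since the 11 probe sets were read in the same mice, and the cause was not tested.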

How the results depend on the processing

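The count of members called across the strains at 4 weeks was 1, and 2 with a pseudocount of 50, with array weights or without the 5 mice of high Gapdh ratio (chosen after seeing the data), and 3 with the median over all probe sets of a gene. It ran from 1 to 2 without single mice, as 2 without NON mouse 1, 4 or 5. At 2 weeks the count of 0 ran from 0 to 1 without single mice (1 without C57 mouse 5) and was 1 without the 5 mice. In NON the age count of 0 became 1 with a pseudocount of 50 or with the fit on all 30 mice, in both cases Ppbp. Ranges without single mice were 0 to 0 for the age change in NOD, NON and C57 and for its comparison between strains, and 2 to 3 for the age change over the 3 strains. With replicate number as a block the counts were 1, 0, 0, 0, 0, 2 and 0 for these 7 results, as without it, and only the NOD differences of Ppbp from the control strains (adjusted p = 0.0847) and of Vwf from C57 (adjusted p = 0.0521) lost their calls. Over all probe sets the calls across strains at 4 weeks numbered 578, against 367 with the block, 960 with the fit on all 30 mice and 271 without the 5 mice. The age calls in NON numbered 23, against 0, 560 and 1 under these settings, and those over the 3 strains 1221, against 712 without the 5 mice. The methods' own tests called Gng11 at 4 weeks at their stricter adjusted level and no member by their t-test within a strain, at their unadjusted level or after adjustment. Of 37 member differences followed over 1073 settings, 1014 kept direction and side of the threshold, 44 lost a call (22 of them Ppbp against the control strains at 4 weeks), 15 gained one and 0 reversed. The Gng11 difference from the control strains kept its call in 27 of 27 settings, and the age differences of Ppbp and Gp9 in 40 of 40 each. The cause of these changes was not tested.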
